A study of Mus musculus with 4 samples.

Results

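The collagen-modifying and crosslinking enzymes described here are 10 genes taken as a fixed list: the collagen chaperone Serpinh1, the lysyl hydroxylases Plod1, Plod2 and Plod3, the prolyl hydroxylases P3h1, P4ha1 and P4ha2, the proteinase Bmp1 and the lysyl oxidases Lox and Loxl2. All 10 were found among the 35905 genes with a matched transcript. Their mRNA was read from poly-A libraries of LLC cells, the Lewis lung carcinoma line, which arose in a C57BL/6 mouse. The cells were implanted under the skin of the flank of C57BL/6 mice, tumours were taken 4 weeks later, and TdTomato+ cells without the leukocyte antigen CD45 were sorted from the digested tissue. PAD4-DN hosts (Mrp8Cre+, Padi4fl/fl) gave 2 libraries and WT hosts (Mrp8Cre-, Padi4fl/fl) gave 2, so hosts of both groups carried the floxed Padi4 alleles. Mrp8Cre is active in neutrophils and other myeloid cells, where it deletes Padi4, the gene of an enzyme that citrullinates histones during the release of neutrophil extracellular traps. The deletion was therefore in host cells and not in the sorted cells. The labels give no age or sex of the hosts and do not say whether the 2 libraries of a group came from separate animals, so the p-values speak for the spread of these libraries, which may be technical.

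Collagen chains are modified in the endoplasmic reticulum before they fold into a triple helix. Prolyl 4-hydroxylases make the helix stable, prolyl 3-hydroxylase acts in a complex that assists folding, lysyl hydroxylases prepare the residues used for sugar attachment and crosslinks, and the chaperone Hsp47, encoded by Serpinh1, binds the folded helix on its way out of the cell. Outside the cell Bmp1 removes the C-terminal propeptide and lysyl oxidases oxidise lysine and hydroxylysine so that neighbouring molecules crosslink. In solid tumours this machinery is known from both fibroblasts and cancer cells, and several of its genes are known targets of the hypoxia-inducible factor HIF-1.

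The libraries held 20036322 and 24142484 estimated counts in PAD4-DN replicates 1 and 2, and 23414984 and 25327974 in WT replicates 1 and 2. Padi4 itself had 6 and 0 estimated counts in PAD4-DN and 0 and 2 in WT. The sort selects against CD45+ neutrophils and these counts are few, so they do not check the genotypes. The cells were rich in the intermediate filament genes Vim (3326 and 3155 TPM in PAD4-DN, 3598 and 3199 TPM in WT) and Krt18 (208 and 184 TPM in PAD4-DN, 227 and 214 TPM in WT). TPM is a level scaled for transcript length and summing to 1000000 in each library. The epithelial gene Epcam was at most 0.35 TPM and Sftpc, a lung epithelial gene, was at 0 counts in all 4 libraries. The 15 leukocyte markers summed to 104 and 17.2 TPM in PAD4-DN and to 64.6 and 37.4 TPM in WT, and the 10 endothelial and mural markers to 52.8 and 33.6 TPM in PAD4-DN and 31.6 and 27.7 TPM in WT. Of 10 fibroblast markers none was at 0 counts in any library, and their sum was 1523 and 1647 TPM in PAD4-DN and 1296 and 1219 TPM in WT, most of it from Dcn, Lum and Dpt. A subset of them, Clec3b, Mfap5, Pi16 and Col14a1, singled out after its values were seen, separated PAD4-DN replicate 1 and WT replicate 2 from the other libraries. Clec3b, for example, was at 9.01 and 0.155 TPM in PAD4-DN and 0.0751 and 4.16 TPM in WT. These libraries stand apart across the genotypes, so each result below is given per library.

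Per length, the 10 enzymes spanned a wide range of levels. Plod2 was the most abundant, at a mean of 325 TPM over the 4 libraries, followed by Serpinh1 at 273, P4ha1 at 147, Plod1 at 110, Bmp1 at 99.1, Plod3 at 69.6, Loxl2 at 24.6, P3h1 at 23.0, P4ha2 at 19.9 and Lox at 6.45. Plod2 lay above Serpinh1, Serpinh1 above P4ha1, P4ha1 above Plod1, Bmp1 above Plod3, Plod3 above Loxl2 and P4ha2 above Lox in every library. Plod1 was above Bmp1 in 3 of the 4 libraries, Loxl2 above P3h1 in 2 and P3h1 above P4ha2 in 3, so these neighbours were not separated beyond the spread between libraries.

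**Figure D1:**
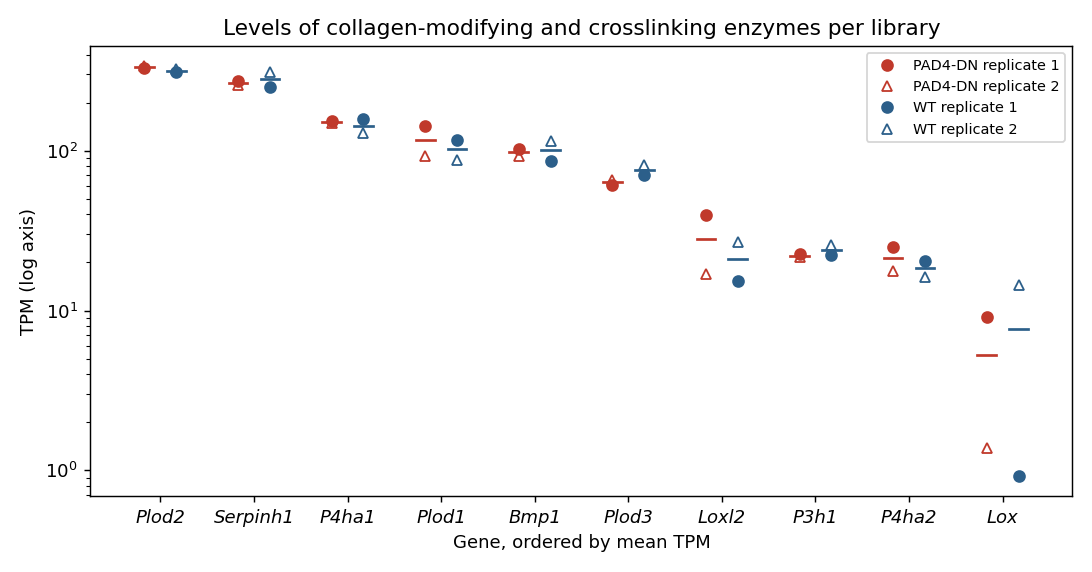
Level of each enzyme gene in TPM on a log axis, with PAD4-DN libraries in red to the left of WT libraries in blue; filled circles are replicate 1, open triangles replicate 2 and short lines the mean of 2 libraries. The replicates of one genotype lie close together for Plod2 and far apart for Lox, which runs from 0.924 to 14.4 TPM.

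Serpinh1, whose product is a chaperone devoted to collagen, was at 275 and 258 TPM in PAD4-DN and 249 and 311 TPM in WT. The ranges overlapped, with WT replicate 2 highest and WT replicate 1 lowest. Its log2 fold change, PAD4-DN minus WT, was −0.13 (SE 0.15), and −0.0081 without WT replicate 2. In CPM, the count scaled to the library total and not to length, which the fits use, the highest library was 1.22 times the lowest.

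The catalytic subunits of prolyl 4-hydroxylase differed several-fold in level from each other and little between genotypes. P4ha1 was at 153 and 149 TPM in PAD4-DN and 157 and 129 TPM in WT, and P4ha2 at 24.9 and 17.8 TPM in PAD4-DN and 20.5 and 16.3 TPM in WT. For both genes the ranges overlapped and WT replicate 2 was the lowest library. The log2 fold change was 0.00022 (SE 0.16) for P4ha1 and 0.07 (SE 0.25) for P4ha2. P4hb, the protein disulfide isomerase that forms the other subunit of the enzyme, was more abundant than P4ha1 in each library, by 4.23 and 3.69 times in PAD4-DN and 4.16 and 4.66 times in WT.

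Both P4ha genes carry a pair of alternative coding exons, and the members of a pair are annotated in different transcripts. They are shown because the share of each form is a readout that gene totals hide. The P4ha1 exons, of 71 bases each on chromosome 10, are identical at 42 of 71 positions when set side by side. The P4ha2 exons lie on chromosome 11 and have 60 and 66 bases. All are on the plus strand, with sequences from GENCODE M21 transcripts (build GRCm38), 5′ to 3′ and in lower case throughout.
P4ha1 downstream exon, chr10:59355350-59355420: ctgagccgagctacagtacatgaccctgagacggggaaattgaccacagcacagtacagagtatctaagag
P4ha1 upstream exon, chr10:59354340-59354410: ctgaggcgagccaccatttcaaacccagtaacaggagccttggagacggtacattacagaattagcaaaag
P4ha2 upstream exon, chr11:54126238-54126297: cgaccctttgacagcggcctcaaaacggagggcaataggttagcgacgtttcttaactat
P4ha2 downstream exon, chr11:54126346-54126411: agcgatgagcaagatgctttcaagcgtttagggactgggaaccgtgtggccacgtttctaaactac

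Transcripts with the downstream P4ha1 exon held 83.0% and 83.7% of the TPM of the 2 forms in PAD4-DN and 82.3% and 84.0% in WT, so the split hardly varied among the 4 libraries. The P4ha2 forms were more even. Transcripts with the upstream P4ha2 exon held 57.8% and 45.2% in PAD4-DN and 66.7% and 45.8% in WT, with both replicate 1 libraries above both replicate 2 libraries and full overlap of the genotypes. The authors' kallisto run divides reads between transcripts by an estimate, so the shares are described without a test, and the P4ha2 forms rest on 199 to 406 estimated counts per form and library.

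P3h1, the prolyl 3-hydroxylase whose loss in humans causes a recessive form of osteogenesis imperfecta, was at 22.6 and 21.5 TPM in PAD4-DN and 22.3 and 25.5 TPM in WT. On the TPM scale the genotypes overlapped. In CPM both PAD4-DN libraries, at 38.2 and 38.2, lay below both WT libraries, at 39.7 and 42.4, and the log2 fold change was −0.10 (SE 0.12), or −0.059 without WT replicate 2.

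The lysyl hydroxylases were led by Plod2, which hydroxylates the telopeptide lysines that form the more stable pyridinoline type of crosslink. It was at 329 and 337 TPM in PAD4-DN and 311 and 324 TPM in WT. On the TPM scale, summed over all its transcripts, both PAD4-DN libraries lay above both WT libraries. Its most abundant coding transcript overlapped, at 272 and 297 TPM in PAD4-DN and 279.9 and 279.7 TPM in WT. In CPM, at 715 and 780 in PAD4-DN and 788 and 746 in WT, the genotypes overlapped. In CPM its highest library was only 1.10 times its lowest, a range smaller than that of all but 4.81% of the 13718 tested genes. The log2 fold change was −0.04 (SE 0.14) in CPM and 0.068 on log2(TPM + 1). In edgeR with counts offset for effective length it was −0.0011, so its direction depended on the processing.

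The telopeptide activity belongs to a long form of the enzyme that contains an extra exon. That exon is shown because it marks this form; it lies on chromosome 9, plus strand, and its 63 bases, a multiple of 3, lengthen the coding sequence to 2274 bases, against 2211 without it (GENCODE M21, build GRCm38).
Plod2 long-form exon, chr9:92601985-92602047: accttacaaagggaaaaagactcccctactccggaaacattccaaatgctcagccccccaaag

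The transcript with this exon held 94.4% and 94.6% of the TPM of the 2 forms in PAD4-DN and 93.7% and 95.8% in WT. The means were 94.5% ± 0.138 in PAD4-DN and 94.8% ± 1.49 in WT (SD, n = 2 each). The long form was thus the main one in every library, and the genotypes overlapped. The form without the exon rested on 803 and 995 estimated counts in PAD4-DN and 1117 and 773 in WT.

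Plod1, which acts on lysines within the helix and is deficient in a human kyphoscoliotic connective tissue disorder, was at 142 and 93.1 TPM in PAD4-DN and 117 and 87.9 TPM in WT. Replicate 1 was above replicate 2 in both genotypes, and the gap between replicates, 0.60 in PAD4-DN and 0.45 in WT on the log2 CPM scale, was larger than the log2 fold change of 0.12 (SE 0.26). Plod3, which also has the glycosyltransferase activity that adds glucose to galactosyl-hydroxylysine, was at 61.0 and 65.8 TPM in PAD4-DN and 70.7 and 80.9 TPM in WT. Both PAD4-DN libraries were below both WT libraries, in TPM and in CPM.

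In CPM Plod3 averaged 82.5 ± 1.74 in PAD4-DN and 101 ± 1.74 in WT (SD, n = 2 each). Its log2 fold change of −0.29 (SE 0.11) was larger than the gaps between replicates, which were 0.04 in PAD4-DN and 0.03 in WT. By edgeR's quasi-likelihood test the unadjusted p was 0.0383 and the p adjusted over all 13718 genes was 0.988, so Plod3 did not pass. Its full-length transcript had the same order, with 33.0 and 30.8 TPM in PAD4-DN and 37.8 and 36.8 TPM in WT. About as much TPM again was assigned to a short coding transcript and one with a retained intron.

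Bmp1, the procollagen C-proteinase, was at 103 and 92.1 TPM in PAD4-DN and 85.8 and 116 TPM in WT. The ranges overlapped, with both extremes in WT, and the log2 fold change was −0.12 (SE 0.17). Its relatives of the tolloid family were scarce, with Tll1 at 0.122 TPM or less and Tll2 at 0.702 TPM or less, so Bmp1 made up 99.4% and 99.3% of the TPM of the 3 genes in PAD4-DN and 99.1% and 99.4% in WT.

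The lysyl oxidases varied most. Lox, the founding member of its family, was at 9.13 and 1.37 TPM in PAD4-DN and 0.924 and 14.4 TPM in WT. WT replicate 2 and PAD4-DN replicate 1 were high and the other libraries low, so the extremes were both in WT. In CPM the highest library was 14.5 times the lowest, and 99.6% of tested genes had a smaller range. Its log2 fold change was −0.61 with an SE of 1.28. Its sign rested on single libraries: leaving out PAD4-DN replicate 1 gave −2.53, and leaving out WT replicate 2 gave 2.34. These values rest on 574 and 102 estimated counts in PAD4-DN and on 72 and 1158 in WT.

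Loxl2, a secreted lysyl oxidase that also acts on basement membrane collagen, followed the high and low libraries of Lox over a smaller range. Loxl2 was highest in PAD4-DN replicate 1, whereas Lox was highest in WT replicate 2. The level of Loxl2 was 39.4 and 17.0 TPM in PAD4-DN and 15.3 and 26.7 TPM in WT, with a log2 fold change of 0.35 (SE 0.43). Without PAD4-DN replicate 1 that value was −0.36. In bulk samples such as these, fewer cells of a type and less RNA per cell cannot be told apart.

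Both annotated transcripts of Lox have the same coding length of 1233 bases. The shorter one, of 4468 bases, held 66.9% and 53.0% of Lox TPM in PAD4-DN and 8.56% and 53.1% in WT. The low value in WT replicate 1 rests on 5.82 estimated counts for that transcript.

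Whether the sorted tumour cells express collagen-modifying genes differently when the host carries Mrp8Cre and lacks Padi4 in neutrophils was tested across all 13718 genes kept by a low-count filter. Of the 10 enzymes, all of which passed the filter, 0 passed at 0.05 after Benjamini-Hochberg adjustment of edgeR's quasi-likelihood p-values, where 0% of all genes passed. Their adjusted p-values were all at least 0.988. At an unadjusted p under 0.05, 1 of 10 was called, Plod3, against 2.65% of all genes, 1.42% of all genes being lower in PAD4-DN. By DESeq2 0 of 10 passed with 0 at an unadjusted p under 0.05, and by limma-voom 0 passed with 1. The log2 fold change was positive for 4 members and negative for 6, with a median of −0.07, against 0.01 over all tested genes. On the TPM scale the enzyme median was 0.02.

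In CPM the genotypes did not overlap for 2 of 10 members, Plod3 and P3h1, against 32.8% of all tested genes. Both members were lower in the PAD4-DN libraries, as were 17.4% of all genes, and 0 of 10 were higher without overlap, as were 15.4%. In TPM P3h1 overlapped and Plod2 was higher in PAD4-DN without overlap, though the most abundant coding transcript of Plod2 overlapped. The share of all genes without overlap in TPM was not computed. In CPM the members' share without overlap was no larger than that of all genes. For Plod3 and P3h1 the genotype difference in CPM also exceeded both replicate gaps, as it did for 21.2% of all genes. For a single gene the smallest two-sided p that an exact permutation test can reach with 2 libraries a group is 0.333.

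**Figure D2:**
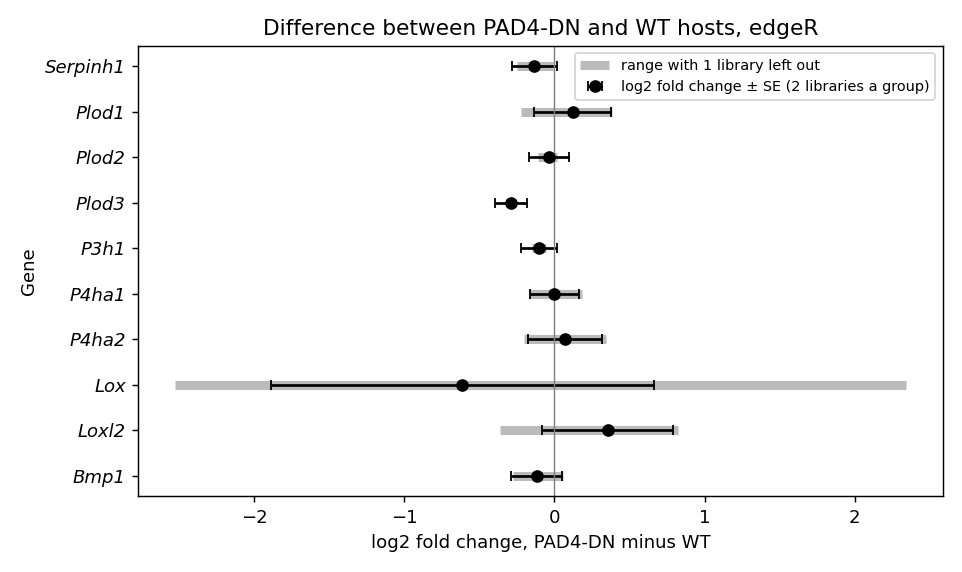
Log2 fold change of each enzyme gene, PAD4-DN minus WT, from edgeR with its SE, over grey bars that span the values with 1 library left out in turn. Plod3 stays between −0.32 and −0.27 while Lox spans −2.53 to 2.34.

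Other genes of collagen folding, export, trimming and crosslinking were read in the same fit. Of 27 such genes 25 passed the low-count filter, all but Colgalt2 and Tll1. By edgeR 0 of 25 passed, and 0 had an unadjusted p under 0.05. DESeq2 and limma-voom called 0 with 0 at an unadjusted p under 0.05. Their median log2 fold change was −0.09, with 7 positive and 18 negative, against 0.01 over all tested genes; on the TPM scale it was −0.0063. Both PAD4-DN libraries were below both WT libraries in CPM for 7 of 25 (17.4% of all genes) and above them for 2 of 25 (15.4% of all genes).

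The 3 most abundant of these partners were P4hb, at 647 and 551 TPM in PAD4-DN and 654 and 603 TPM in WT, the cyclophilin Ppib, and the collagen-binding glycoprotein Sparc. Ppib, which works in a complex with P3h1 and Crtap, was at 524 and 517 TPM in PAD4-DN and 544 and 549 TPM in WT. Sparc was at 297.8 and 199.7 TPM in PAD4-DN and 200.9 and 330.1 TPM in WT, in the same high and low libraries as Lox.

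The smallest p-values among the partners belonged to P3h2, Fkbp10 and Loxl4. P3h2, a prolyl 3-hydroxylase that acts on basement membrane collagen, was at 14.1 and 18.6 CPM in PAD4-DN and 20.5 and 22.1 CPM in WT, a log2 fold change of −0.38 (SE 0.19). Fkbp10, whose product is a collagen-binding prolyl isomerase of the endoplasmic reticulum that favours telopeptide lysine hydroxylation, was at 165 and 175 CPM in PAD4-DN and 206 and 192 CPM in WT. In CPM 7 partners lay below WT without overlap. They were P3h2, Fkbp10, the galactosyltransferase Colgalt1, the propeptidase Adamts3, the tolloid relative Tll2, the proteinase enhancer Pcolce2 and Ppib. In TPM P3h2, Colgalt1, Adamts3 and Pcolce2 overlapped, while Fkbp10, Tll2 and Ppib did not. The mean TPM of Adamts3 was higher in PAD4-DN, at 0.834 against 0.639 in WT. Adamts3 and Tll2 rest on 28 to 54 estimated counts per library. Loxl4 was at 13.9 and 10.3 CPM in PAD4-DN and 12.3 and 23.0 CPM in WT, and overlapped.

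The export genes Mia2 and Mia3, which load bulky procollagen at exit sites of the endoplasmic reticulum, were the 2 without overlap above WT. Mia3 was at 231 and 224 CPM in PAD4-DN and 199 and 215 CPM in WT, and Mia2 at 95.7 and 103 CPM in PAD4-DN and 95.6 and 94.3 CPM in WT. None of these genes passed.

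Within their families the shares of the main hydroxylases varied less across libraries than those of the lysyl oxidases. Plod2 made up 61.9% and 68.0% of the lysyl hydroxylase TPM in PAD4-DN and 62.3% and 65.8% in WT. The summed TPM of the 3 Plod genes was 532 and 496 in PAD4-DN and 499 and 493 in WT. P4ha1 made up 84.2% and 88.9% of the prolyl 4-hydroxylase alpha subunit TPM in PAD4-DN and 88.3% and 87.1% in WT.

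The main lysyl oxidase by TPM was Loxl3, at 46.8% and 74.2% of the 5 genes in PAD4-DN and 69.1% and 53.2% in WT. Lox supplied 8.48% and 1.57% in PAD4-DN and 1.34% and 12.2% in WT, and Loxl2 supplied 36.6% and 19.4% in PAD4-DN and 22.2% and 22.7% in WT. The share of Loxl3 was thus high in the libraries where that of Lox was low, but shares of a family depend on each other. Loxl3 itself was at 50.4 and 64.9 TPM in PAD4-DN and 47.6 and 62.6 TPM in WT. Its level was lowest in WT replicate 1, where Lox was also lowest. Loxl1, the paralogue tied to elastic fibres, was at 3.01 and 0.115 TPM in PAD4-DN and 0.0563 and 4.88 TPM in WT, in the same high and low libraries as Lox. The summed TPM of the 5 genes was 108 and 87.4 in PAD4-DN and 68.9 and 118 in WT.

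**Figure D3:**
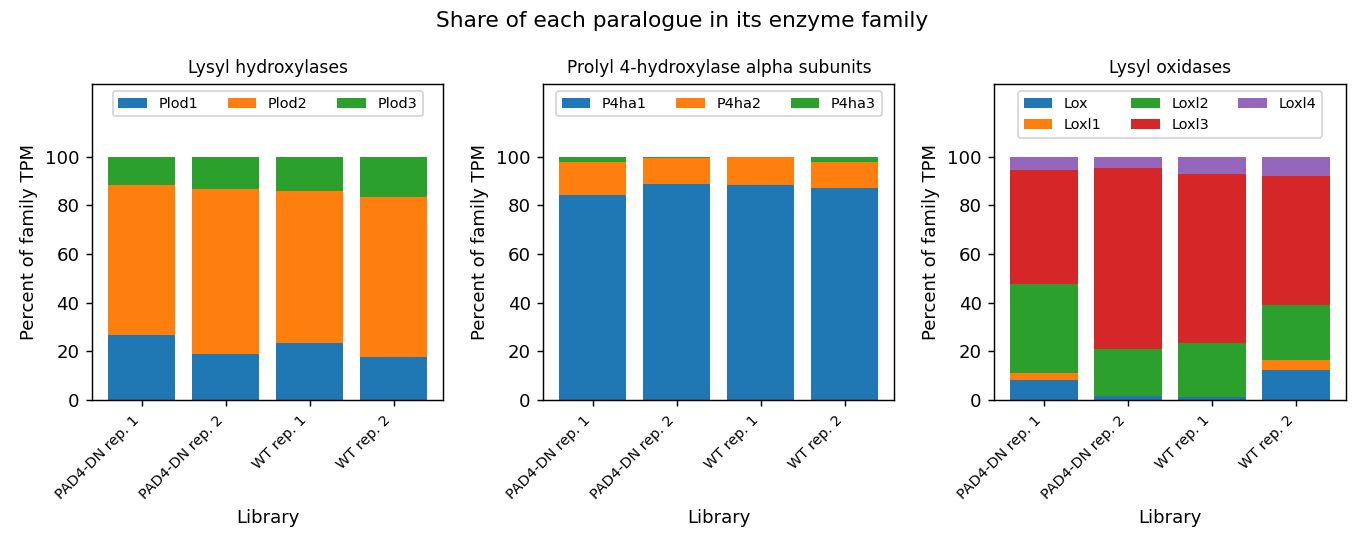
Stacked bars of each paralogue's percent of the summed TPM of its family, for lysyl hydroxylases, prolyl 4-hydroxylase alpha subunits and lysyl oxidases, with one bar per library and PAD4-DN to the left of WT. Plod2 and P4ha1 form the largest part of their bars in all 4 libraries, while Loxl3 ranges from 46.8% to 74.2%.

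The enzymes varied less across libraries than their substrates. The median ratio of the highest to the lowest library in CPM was 1.28 over the 10 enzymes, 1.34 over the 25 tested partners and 4.69 over 12 collagen and elastin genes, against 1.37 over all tested genes. For 8 of the 10 enzymes the ratio was under 1.6. Col1a1, the main chain of type I collagen, was at 161 and 4.14 TPM in PAD4-DN and 3.67 and 127 TPM in WT, and its partner chain Col1a2 at 129 and 1.24 TPM in PAD4-DN and 0.421 and 108 TPM in WT. Both were singled out after their values were seen.

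Type III collagen was abundant in every library, with Col3a1 at 5100 and 2754 TPM in PAD4-DN and 3060 and 3398 TPM in WT. Col6a1, a chain of microfibrillar type VI collagen, was at 316 and 72.1 TPM in PAD4-DN and 92.5 and 106 TPM in WT, and Col6a3 at 205 and 88.3 TPM in PAD4-DN and 191 and 211 TPM in WT. The TPM of Col1a1 per TPM of Serpinh1 was 0.588 and 0.0160 in PAD4-DN and 0.0147 and 0.410 in WT, a range of 39.9 times. Per TPM of Lox it was 17.7 and 3.02 in PAD4-DN and 3.97 and 8.87 in WT, a range of 5.86 times. For the more abundant Col3a1 the comparison went the other way. Its ratio ranged 1.74 times per TPM of Serpinh1 and 14.0 times per TPM of Lox.

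By CPM, 4 of the 10 enzymes had PAD4-DN replicate 1 and WT replicate 2 as their highest libraries, namely Lox, Loxl2, Serpinh1 and Bmp1. The share of all tested genes with that pair highest was not counted. Serpinh1 and Bmp1 ranged only 1.22 and 1.29 times, below the median of 1.37 over all tested genes. PAD4-DN replicate 1 and WT replicate 2 were also the libraries in which the fibroblast markers Clec3b, Mfap5, Pi16 and Col14a1 were high. Relative to its mean over the libraries on the log2 CPM scale, Lox was at 1.21 and −1.37 in PAD4-DN and −1.75 and 1.91 in WT. Pi16, a marker of adventitial fibroblasts, was at 1.75 and −1.41 in PAD4-DN and −1.99 and 1.65 in WT.

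The most abundant fibroblast markers did not follow that order. Dcn, a small proteoglycan that binds collagen, was at 911 and 961 TPM in PAD4-DN and 840 and 692 TPM in WT, Lum at 219 and 430 TPM in PAD4-DN and 251 and 273 TPM in WT, and Dpt at 241 and 170 TPM in PAD4-DN and 118 and 141 TPM in WT. The part of other cells in the levels of Lox and Loxl2 was not tested.

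**Figure D4:**
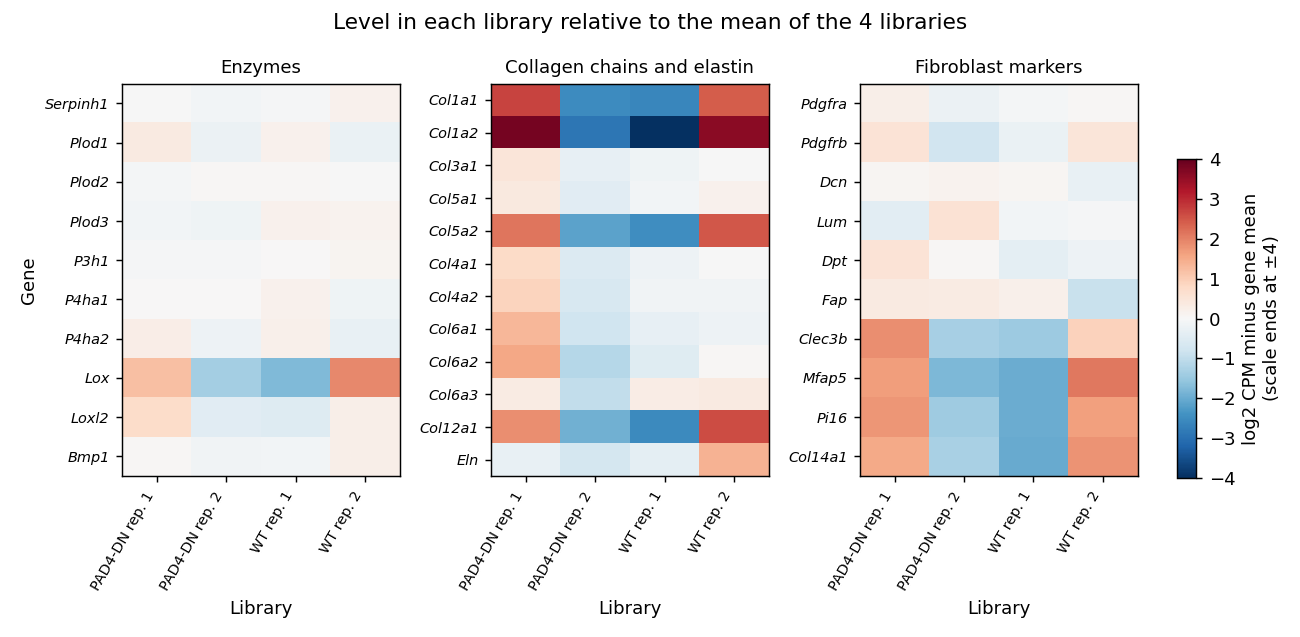
Colour gives log2 CPM minus the gene's mean over the 4 libraries, for enzymes, collagen chains with elastin, and fibroblast markers, with PAD4-DN libraries left of WT libraries in each panel. Lox and, more weakly, Loxl2 share the pattern of Col1a1, Col1a2, Col5a2, Col12a1, Clec3b, Mfap5, Pi16 and Col14a1, high in PAD4-DN replicate 1 and WT replicate 2, while the other enzymes are pale. Not all genes of these panels follow it. Col3a1, Col4a1, Col4a2 and Col6a1 are high in PAD4-DN replicate 1 but not in WT replicate 2. The fibroblast marker Fap is lowest in WT replicate 2, at −0.90.

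Another order of libraries was shared by 3 of the enzymes. Plod1, P4ha1 and P4ha2 were highest in PAD4-DN replicate 1 and WT replicate 1 and lowest in WT replicate 2, though the PAD4-DN libraries hardly differed for P4ha1, at 299.5 and 298 CPM. Among 17 matched genes of a list of known HIF targets, 16 were highest in WT replicate 1 and 13 of them also lowest in WT replicate 2. The share of all tested genes with these library orders was not counted. Relative to each gene's mean in log2 CPM, the list median was −0.12 and 0.11 in PAD4-DN and 0.29 and −0.28 in WT. Plod1 and P4ha2 were instead higher in PAD4-DN replicate 1 than in replicate 2. P4ha1 was the 1 enzyme with WT replicate 1 highest and WT replicate 2 lowest.

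The glycolytic HIF targets Ldha, Eno1 and Pgk1 were the most abundant of that list. Ldha was at 1178 and 1313 TPM in PAD4-DN and 1526 and 1172 TPM in WT, Eno1 at 1089 and 1076 TPM in PAD4-DN and 1295 and 1066 TPM in WT, and Pgk1 at 665 and 748 TPM in PAD4-DN and 891 and 644 TPM in WT. By edgeR 0 of the 17 passed or had an unadjusted p under 0.05, and their median log2 fold change was −0.02. The part of oxygen supply in the levels of these enzymes was not tested.

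The nearest pattern to each enzyme was sought among the other enzymes and the tested partners, 34 genes in all, as the smallest value of the largest gap over the 4 libraries between log2 CPM profiles centred on their means. Plod1 and P4ha2 were nearest to each other, with a largest gap of 0.08, and so were Serpinh1 and Bmp1, with 0.06. P3h1 was nearest to Colgalt1 (0.05), Plod3 to Ppib (0.09), and Plod2 and P4ha1 both to the propeptidase Adamts14 (0.06 and 0.10). Lox was nearest to Loxl1 with a gap of 0.36 and Loxl2 to Fkbp14 with 0.38. The gap grows with a gene's own range, which was widest for Lox and Loxl2, so its size does not compare closeness between enzymes. With 4 libraries these are descriptions of the libraries.

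Promoters are shown for Plod1 and P4ha2, whose profiles were nearest to each other, and for P4ha1, which shared their high and low libraries. Plod3 is shown because its libraries did not overlap between genotypes in either TPM or CPM. RefSeq promoters (build GRCm38.p6, 250 bases before to 50 after the annotated start) are reported for 6 of the 10 genes. Plod2, Loxl2 and Bmp1 had no promoter in the reference set. Lox was set aside by its chromosome, and its matches are not reported. Capitals mark ACGTG or GCGTG, the core of the site that HIF-1 binds, searched on both strands so that CACGT and CACGC are its reverse forms; ACGTG is also part of the E-box CACGTG.
Plod1, chr4:147936727-147937026, minus strand: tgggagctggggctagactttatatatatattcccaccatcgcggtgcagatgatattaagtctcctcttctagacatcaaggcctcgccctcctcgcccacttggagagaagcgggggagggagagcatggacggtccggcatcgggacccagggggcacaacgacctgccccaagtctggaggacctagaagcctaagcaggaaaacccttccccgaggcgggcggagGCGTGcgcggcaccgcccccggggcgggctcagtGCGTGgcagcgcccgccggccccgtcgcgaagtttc
P4ha2, chr11:54100674-54100973, plus strand: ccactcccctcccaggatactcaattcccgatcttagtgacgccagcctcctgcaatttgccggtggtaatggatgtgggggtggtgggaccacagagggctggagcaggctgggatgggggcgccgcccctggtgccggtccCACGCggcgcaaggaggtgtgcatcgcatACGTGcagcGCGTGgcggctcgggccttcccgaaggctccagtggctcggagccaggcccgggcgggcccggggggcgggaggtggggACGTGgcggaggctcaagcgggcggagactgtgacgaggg
P4ha1, chr10:59323046-59323345, plus strand: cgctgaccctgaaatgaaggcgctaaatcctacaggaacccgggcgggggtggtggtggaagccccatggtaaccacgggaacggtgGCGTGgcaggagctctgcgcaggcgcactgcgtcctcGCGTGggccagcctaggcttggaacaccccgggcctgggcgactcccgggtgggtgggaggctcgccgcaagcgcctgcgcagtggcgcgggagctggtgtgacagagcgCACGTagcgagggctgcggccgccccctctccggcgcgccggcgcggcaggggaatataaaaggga
Plod3, chr5:136986769-136987068, plus strand: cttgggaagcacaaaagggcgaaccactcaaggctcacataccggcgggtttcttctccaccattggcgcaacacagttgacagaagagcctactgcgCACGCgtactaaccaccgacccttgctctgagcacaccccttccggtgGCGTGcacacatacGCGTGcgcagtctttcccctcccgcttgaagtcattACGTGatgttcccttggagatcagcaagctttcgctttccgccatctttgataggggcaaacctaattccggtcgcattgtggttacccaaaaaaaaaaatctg

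The motif matched 2 times in the Plod1 promoter, 4 in P4ha2, 3 in P4ha1 and 4 in Plod3. In the reported promoters not shown it matched 2 times in each P3h1 promoter and 1 time in Serpinh1. Among all 32851 RefSeq promoters, 43.8% held at least 1 match, 8.93% at least 3 and 3.86% at least 4. The 7 promoters of the 6 enzymes reported all held at least 1. Lox was set aside and is not in that count, so the 7 are not a complete set of the enzyme promoters. Base composition was not matched in that comparison, and a match is a stretch of letters, not evidence of binding.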

How the data were processed

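Poly-A RNA was sequenced from sorted LLC cells, 2 libraries each from PAD4-DN and WT hosts, grouped by the labels. Per the labels' protocols, 100 ng of total RNA and 13 PCR cycles gave strand-specific libraries read for 75 cycles. The submitters' processing notes name kallisto and GRCm39; its version and annotation go unstated in the labels and headers. The authors deposited estimated counts, not normalized, and TPM, scaled for effective length, for 117486 transcripts; per the file headers length and effective length in bases stand beside them. Estimated counts and TPM were summed per gene with GENCODE M21, which matched 116408 transcripts, and counts were rounded to whole numbers. Reads of similar transcripts are split by estimate.

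PAD4-DN was compared with WT by edgeR 4.0.16 in R 4.3.3 (TMM, filterByExpr, quasi-likelihood test, Benjamini-Hochberg adjustment over 13718 genes). CPM uses TMM-scaled totals; centred profiles use log2(CPM + 0.5). Alternatives used DESeq2 1.42.0, limma 3.58.1, other filters, scalings and units, a replicate block and each library left out; log2(TPM + 1) and log2(TPM + 0.1) had a minimum mean TPM of 1. The tests were run on 3 sets of simulated counts to check that called genes had the right sign. Their power is not reported here. The enzymes and gene lists were chosen with earlier results of these data known. Named genes are all 10 enzymes; of the partners, the 3 with the smallest p, the 3 most abundant and those without overlap; of collagens, HIF targets and fibroblast markers, the 3 most abundant; and nearest profiles. Of the HIF target list, 17 of 19 symbols matched 1 gene each; the other 2 were not used. TdTomato was not analysed here. Each group has 2 libraries, and the median SE of a log2 fold change was 0.20. PCR reads carry no molecular identifiers, so counts are not independent molecules.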

Additional observations from a re-analysis of the deposited data

How the results depend on the processing

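With 2 libraries in each group, small differences could not be told from the spread between libraries, and the 10 enzymes kept 0 genes past the false discovery rate under all 15 alternatives, with a smallest adjusted p of 0.681. Plod3 kept a negative log2 fold change in each of them. Over all genes, 10 passed with DESeq2 and 10 with edgeR without the low-count filter, and 0 to 2 with 1 library left out. P4ha1, at 0.00022 in the main comparison, was −0.0043 with DESeq2 and −0.013 without the low-count filter. Plod2 was 0.068 with limma-trend on log2(TPM + 1) and 0.069 on log2(TPM + 0.1), and the partner median was −0.0063 and −0.0064 there; TPM and CPM are scaled differently, and the cause was not tested. With 1 library left out, the log2 fold change ran from −0.28 to 0.057 for Bmp1, −2.53 to 2.34 for Lox, −0.36 to 0.83 for Loxl2, −0.17 to 0.19 for P4ha1, −0.21 to 0.35 for P4ha2, −0.22 to 0.39 for Plod1, −0.25 to −0.0081 for Serpinh1, −0.15 to −0.06 for P3h1 and −0.11 to 0.016 for Plod2. The enzyme median then ran from −0.21, without PAD4-DN replicate 1, to −0.020, and the partner median from −0.19, also without PAD4-DN replicate 1, to 0.012, without PAD4-DN replicate 2. In these fits the lone library of a group is assumed to vary like the others.

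The replicate numbers are not stated to pair the libraries. The difference of replicate 1 minus replicate 2 had a correlation of −0.32 between the genotypes over 13718 genes. With the replicate block 0 genes passed, with 309 at an unadjusted p under 0.05, and with a crossed replicate block, added after the data were seen, 0 passed, with 412. Of the 10 enzymes 0 passed with either block.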
